A study of Mus musculus with 6 samples.

Results

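A group of 10 genes that mark megakaryocytes and blood platelets was followed in mouse bone marrow, chosen as a named list: Pf4, Ppbp, Itga2b, Itgb3, Gp1ba, Gp1bb, Gp5, Gp9, Treml1 and Tubb1. All 10 were found among the 49315 gene identifiers of the count table, and all 10 passed the filter on low counts that left 16956 genes for testing. Poly(A)-selected RNA of bone marrow cells was sequenced from mice fed the HFSC diet (the abbreviation is used as the labels give it) and subjected to hindlimb ischemia, a surgical loss of blood flow to a leg. The control group, labelled flox and called WT here, held 3 libraries (replicates 1, 3 and 4) with the miR-181a2b2 locus flanked by recombination sites, and the group called KO held 3 libraries (replicates 2, 3 and 4) labelled miR-181a2b2-/-. Diet and ischemia were common to both groups, so neither can be studied here, and the labels used give no age, sex, Cre driver or background strain. The labels do not say whether the libraries came from different mice. Xist exceeded 1 CPM (a unit defined below) in WT replicates 3 and 4 and in KO replicate 2 only. Libraries within each group thus differed in Xist, and the number of mice per group was not tested. Each p-value is relative to the spread among these libraries, which may be technical in part.

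Megakaryocytes are large polyploid marrow cells that shed platelets into the sinusoids. Their maturation is shaped by the transcription factors GATA1, FLI1, RUNX1 and NFE2. Platelets stick to injured vessel walls through the GP Ib-IX-V complex, which binds von Willebrand factor, and bridge to each other through the integrin alpha IIb beta 3, which binds fibrinogen. Their alpha granules release the CXC chemokines PF4 and PPBP.

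The locus missing in KO encodes 2 microRNAs whose seed, the stretch that pairs with target messages, is the same. Whether KO marrow lacked the mature microRNAs themselves was not measured. Their mature sequences (RefSeq, GRCm38.p6, both on the plus strand of chromosome 2) are given because the deleted locus encodes them, with the seed, bases 2 to 8, in capitals.
miR-181a-5p: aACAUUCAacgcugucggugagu
miR-181b-5p: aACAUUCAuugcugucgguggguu
Mir181a-2 and Mir181b-2 had 0 counts in all 6 libraries. In poly(A)-selected libraries these counts check nothing about the labels.

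Matches to this seed were sought in the annotated 3' UTRs of the members (GENCODE M21, longest 3' UTR per gene). A 3' UTR was matched for 9 members, Tubb1 being without one here. An 8mer or 7mer match stood in 1 of these 9, Itgb3, against 20.9% of 21004 genes with a 3' UTR, and 0 of the 9 held an 8mer. Ppbp, Itgb3 and Gp1bb held 6mer matches, of which there were 2, 3 and 1. The Itgb3 match begins 146 bases after the stop codon of a 3' UTR of 3331 bases. The stretch around the match, chr11:104667279-104667300 on the plus strand, is shown with the matching letters in capitals.
Itgb3 site: gtcagtatgtggGAATGTAtct

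The stretches just upstream of 4 members are given because the ratios of Gp1ba to each of the other 3 are described further on. Each is the 250 bases before the RefSeq start of the gene (GRCm38.p6). Capitals mark 6-letter matches on either strand to the GATA motifs AGATAA with its variant AGATAG and TGATAA with its variant TGATAG, and to the ETS motifs AGGAAG with its variant CGGAAG. Pf4 lies at chr5:90772185-90772434 (plus strand), Gp1ba at chr11:70638872-70639121 (plus strand), Gp1bb at chr16:18622404-18622653 (minus strand) and Gp9 at chr6:87777820-87778069 (plus strand).
Pf4: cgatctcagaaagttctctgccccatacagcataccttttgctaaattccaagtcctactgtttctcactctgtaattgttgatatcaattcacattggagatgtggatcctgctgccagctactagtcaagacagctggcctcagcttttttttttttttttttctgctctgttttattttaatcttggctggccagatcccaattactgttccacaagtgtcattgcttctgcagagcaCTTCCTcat
Gp1ba: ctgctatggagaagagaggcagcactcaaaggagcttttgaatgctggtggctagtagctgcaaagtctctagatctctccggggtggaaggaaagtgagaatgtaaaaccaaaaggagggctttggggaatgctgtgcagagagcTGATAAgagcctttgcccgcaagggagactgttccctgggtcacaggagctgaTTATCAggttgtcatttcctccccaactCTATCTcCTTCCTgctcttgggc
Gp1bb: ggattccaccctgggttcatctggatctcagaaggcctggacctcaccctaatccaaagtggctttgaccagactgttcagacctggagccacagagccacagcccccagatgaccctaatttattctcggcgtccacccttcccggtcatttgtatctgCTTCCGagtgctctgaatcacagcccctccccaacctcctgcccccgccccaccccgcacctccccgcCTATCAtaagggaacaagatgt
Gp9: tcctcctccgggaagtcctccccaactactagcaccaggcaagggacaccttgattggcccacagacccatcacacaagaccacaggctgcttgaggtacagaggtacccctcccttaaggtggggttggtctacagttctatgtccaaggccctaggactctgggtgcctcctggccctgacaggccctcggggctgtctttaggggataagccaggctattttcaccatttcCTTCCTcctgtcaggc
RefSeq gave this stretch for 9 of the 10 members. An ETS match stood in 7 of these 9, in all but Ppbp and Treml1, against 39.2% of 32851 mouse promoter stretches of the same length. A GATA match stood in 3 of the 9, against 26.5%. Those were Gp1ba with 3 matches, Gp5 with 3 and Gp1bb with 1, and each of the 3 also had an ETS match, a pairing present in 9.2% of all stretches. A RUNX match (TGTGGT with its variant TGCGGT, either strand) was present in 1 of the 9, Gp9, against 18.6%. GATA, ETS and RUNX letters are short and common, so a match is a description of the sequence and not a binding site.

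The libraries held between 33861440 and 40359093 counts. Levels are given as CPM, counts relative to the library total after TMM scaling. Marker genes of marrow cells were abundant, the 12 neutrophil genes summing to between 43710 and 79560 CPM. The extraction text of the labels names white adipose tissue, whereas Adipoq, the adipocyte hormone gene, lay between 2.70 and 6.62 CPM. Over all genes 159 were higher and 258 lower in KO (edgeR quasi-likelihood test, adjusted p under 0.05), a split that was 87 and 403 with library totals as the only scaling.

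None of the 10 genes passed the test between KO and WT marrow. In edgeR 0 of the 10 passed the threshold, where 2.46% of all genes tested did, and 0 had an unadjusted p under 0.05, where 23.9% of all genes did. DESeq2 and limma also called 0 of the 10, with 12.6% and 6.23% of their tested genes called. Every member had overlapping groups, whereas 14.4% of all genes had each KO library above each WT library and 14.7% the reverse. The fold changes (log2, KO minus WT) ran from -0.21 for Gp1ba to 0.68 for Pf4, with 8 above 0 and 2 below 0. Their median was 0.31, beside -0.01 over all genes tested. This median rested on single libraries: it was 0.02 without KO replicate 2, 0.60 without KO replicate 3, 0.51 without WT replicate 1 and 0.17 without WT replicate 3. In bulk marrow, a change in the number of megakaryocytes and a change in RNA per megakaryocyte cannot be told apart.

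**Figure D1:**
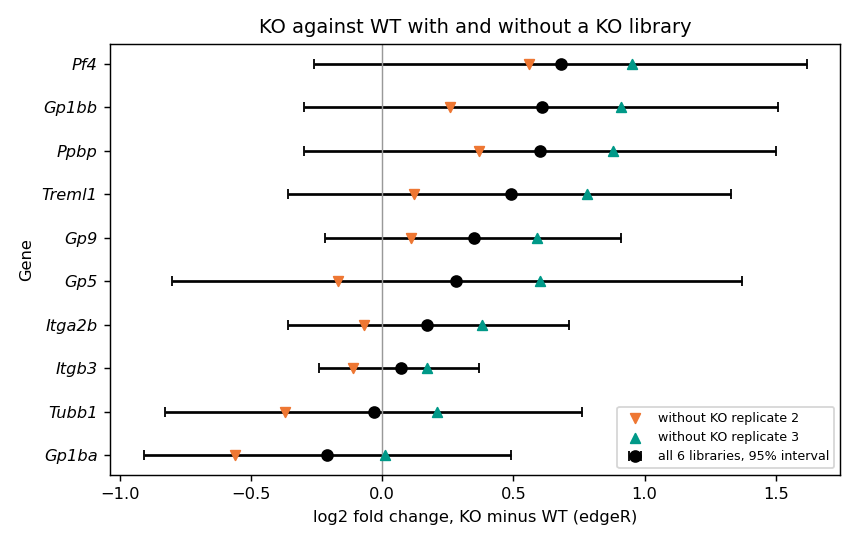
Fold change of each member (horizontal axis, log2, KO minus WT, edgeR) with its 95% interval in black, and the same value without KO replicate 2 (orange) or KO replicate 3 (green). Every interval spans 0, and the points shift to the left without KO replicate 2 and to the right without KO replicate 3 for each of the 10 genes.

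Pf4 and Ppbp encode chemokines that are stored in alpha granules, and they lie next to each other on chromosome 5 (GRCm38, plus strand), Ppbp at 90768518 to 90770063 and Pf4 at 90772435 to 90773383. Pf4 stood at 64.0, 33.5 and 37.6 CPM in WT replicates 1, 3 and 4 and at 84.6, 43.7 and 88.1 CPM in KO replicates 2, 3 and 4. KO replicates 2 and 4 were above all WT libraries, and KO replicate 3 was below WT replicate 1. The log2 fold change of Pf4 was 0.68 ± 0.37 (SE, 3 against 3 libraries, edgeR adjusted p = 0.331), with a 95% interval from 0.836 to 3.08 times the WT level. Ppbp, the precursor of several platelet chemokines, stood at 161, 94.2 and 97.2 CPM in WT and at 230.0, 104 and 199 CPM in KO, in the same replicate order. WT replicate 1 was the highest WT library and KO replicate 3 the lowest KO library for both genes. The log2 fold change of Ppbp was 0.60 ± 0.36 (SE, edgeR adjusted p = 0.373). Each of these values kept its sign in all 16 alternative fits, from 0.51 to 1.02 for Pf4 and from 0.37 to 0.89 for Ppbp, and neither gene was called in any of them.

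Itga2b and Itgb3 encode the alpha IIb and beta 3 chains of the fibrinogen receptor, and both are on chromosome 11. Itga2b (102453297 to 102470122, minus strand) was at 93.1, 71.6 and 72.9 CPM in WT replicates 1, 3 and 4 and at 117, 62.9 and 87.8 CPM in KO replicates 2, 3 and 4. KO replicate 2 was the highest and KO replicate 3 the lowest of the 6, so that the WT libraries lay between them. The log2 fold change was 0.17 ± 0.22 (SE, edgeR adjusted p = 0.679), and without KO replicate 2 it was -0.07. Itgb3 (104608000 to 104670476, plus strand), the gene with the 7mer match shown above, was at 133, 114 and 128 CPM in WT and at 161, 113 and 118 CPM in KO. Its log2 fold change of 0.07 ± 0.14 (SE, edgeR adjusted p = 0.808) had a 95% interval from 0.845 to 1.30 times the WT level, the narrowest of the 10. Itgb3 also had the smallest spread within groups, an SD of 0.21 in log2 CPM. Beta 3 is also the partner of alpha V in osteoclasts, macrophages and endothelium. Of the 8 osteoclast markers 5 passed the filter on low counts and 0 were called by edgeR or DESeq2, with 1 lower at an unadjusted p under 0.05. Their sum lay between 107 and 113 CPM in WT and between 78.6 and 108 CPM in KO. The part of such cells in the Itgb3 level was not tested.

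Gp1ba, Gp1bb, Gp5 and Gp9 encode the subunits of the GP Ib-IX-V receptor. Gp1ba (chromosome 11, 70639122 to 70642036, plus strand), whose product binds von Willebrand factor, was at 18.5, 12.3 and 12.02 CPM in WT replicates 1, 3 and 4 and at 17.9, 8.58 and 10.6 CPM in KO replicates 2, 3 and 4. KO replicates 3 and 4 were below all WT libraries and KO replicate 2 was near the top, giving a log2 fold change of -0.21 ± 0.30 (SE, edgeR adjusted p = 0.715). Gp1bb (chromosome 16, 18620317 to 18622403, minus strand), the disulphide-linked partner chain, was at 12.8, 6.90 and 9.11 CPM in WT and at 21.0, 8.02 and 14.8 CPM in KO. For Gp1bb the log2 fold change was 0.61 ± 0.38 (SE, edgeR adjusted p = 0.374). Of the exon bases of Gp1bb, 91.1% are shared with Sept5 on the same strand, and the handling of shared bases in the counting is unknown here, so the values of Gp1bb are uncertain. Sept5, which encodes a septin, had 94.5, 129 and 126 CPM in WT and 158, 145 and 139 CPM in KO, each KO library above each WT library.

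Gp5 (chromosome 16, 30307685 to 30310779, minus strand), a thrombin-cleaved subunit, was at 20.5, 11.2 and 14.7 CPM in WT replicates 1, 3 and 4 and at 29.0, 9.81 and 17.5 CPM in KO replicates 2, 3 and 4. It had the largest spread within groups of the 10, an SD of 0.63 in log2 CPM, and a log2 fold change of 0.28 ± 0.44 (SE, edgeR adjusted p = 0.738). Gp9 (chromosome 6, 87778072 to 87779768, plus strand), a small subunit needed for surface display of the complex, was at 13.04, 9.38 and 10.6 CPM in WT and at 18.4, 9.03 and 14.5 CPM in KO. The log2 fold change of Gp9 was 0.35 ± 0.25 (SE, edgeR adjusted p = 0.432). For all 4 subunit genes the groups overlapped, and KO replicate 3 was below KO replicates 2 and 4.

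Treml1 encodes TLT-1, a receptor held in platelet granules, and Tubb1 encodes the beta 1 tubulin of the platelet marginal band. Treml1 (chromosome 17, 48359916 to 48367176, plus strand) was at 14.6, 9.08 and 9.57 CPM in WT replicates 1, 3 and 4 and at 22.6, 8.89 and 15.1 CPM in KO replicates 2, 3 and 4, with a log2 fold change of 0.49 ± 0.35 (SE, edgeR adjusted p = 0.452). Tubb1 (chromosome 2, 174450695 to 174457882, plus strand) was at 27.3, 18.3 and 15.5 CPM in WT and at 28.3, 12.9 and 18.5 CPM in KO. Its log2 fold change of -0.03 ± 0.33 (SE, edgeR adjusted p = 0.963) was the one nearest 0 of the 10. KO replicate 3 was the lowest library for both genes and KO replicate 2 the highest.

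Levels were compared between genes as CPM per kilobase of exon. Ppbp held rank 1 in each of the 6 libraries, at 108 ± 34.7 per kilobase in WT and 164 ± 60.8 in KO (SD, n = 3 each). Pf4 held rank 2 in each, at 62.4 ± 22.96 per kilobase in WT and 100 ± 34.2 in KO. Itgb3 followed at rank 3 in each library, at 21.2 ± 1.68 per kilobase in WT and 22.2 ± 4.47 in KO. Itga2b, Tubb1 and Gp9 followed with means between 12.5 and 16.4, and their order changed from library to library. Treml1 held rank 7 and Gp5 rank 8 in each library. Gp1bb and Gp1ba were the last pair, with Gp1ba above Gp1bb in each WT library and below it in each KO library. The level of Gp1bb per kilobase, and so its rank and this switch, is uncertain, since 91.1% of its exon bases are shared with Sept5.

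**Figure D2:**
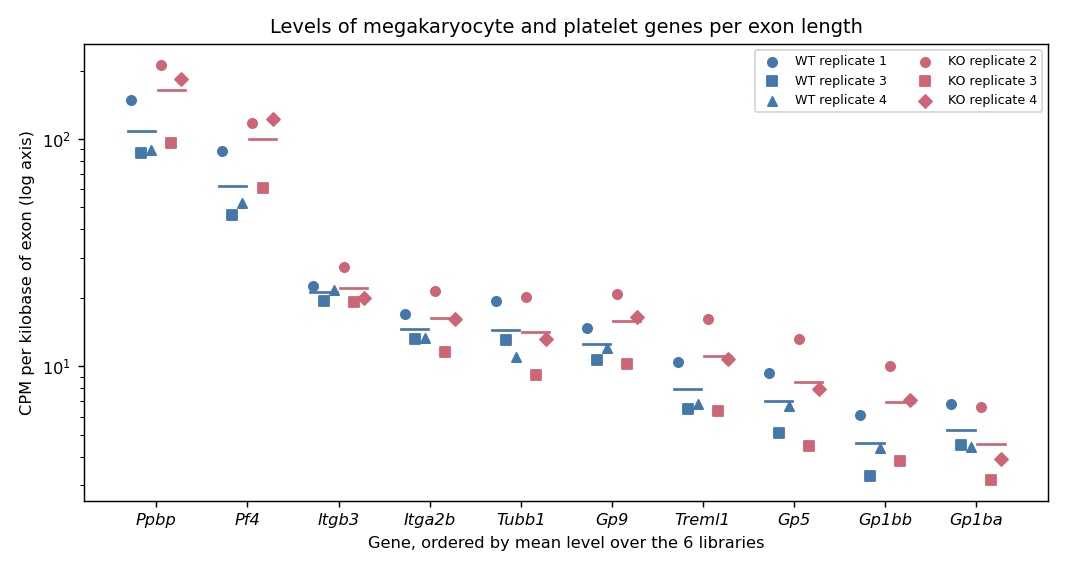
Level of each member (vertical axis, CPM per kilobase of exon, log scale) in the 3 WT (blue) and 3 KO (red) libraries, with a line at each group mean. Ppbp and Pf4 lie above the other 8 genes in every library, and the groups overlap for every gene.

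The members moved together from library to library, and this movement crossed the groups. The 10 genes summed to 558, 380.3 and 407 CPM in WT replicates 1, 3 and 4 and to 730.3, 381 and 584 CPM in KO replicates 2, 3 and 4, so WT replicate 3 and KO replicate 3 were nearly equal. KO replicate 2 was the highest library for 8 of the 10 genes and KO replicate 3 the lowest for 7. Relative to each gene's own mean over the libraries, the members averaged 0.65 on the log2 scale in KO replicate 2, 0.26 in WT replicate 1, 0.19 in KO replicate 4, -0.26 in WT replicate 4, -0.38 in WT replicate 3 and -0.46 in KO replicate 3. The 45 pairs of members had Pearson correlations over the 6 libraries between 0.40 and 0.99 with a median of 0.87, and of at least 0.58 with a median of 0.93 about the group means. These correlations are descriptions over 6 libraries that share depth and scaling. The SD within groups had a median of 0.51 in log2 CPM over the members, beside 0.13 over the 9636 tested genes whose mean log2 CPM was 3 or more. The highest library exceeded the lowest by a median factor of 2.32 for the members and 1.35 for those genes.

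**Figure D3:**
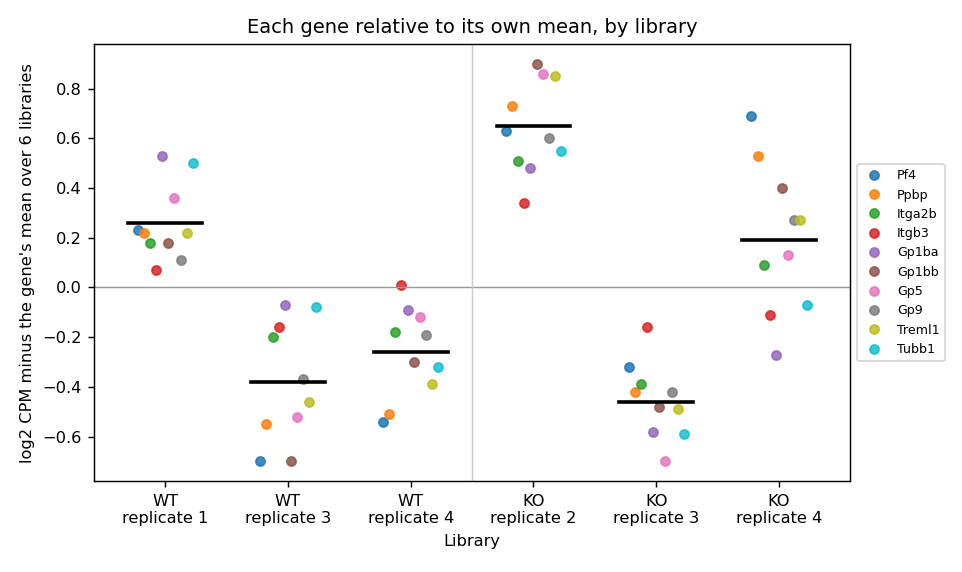
Log2 CPM of each member minus its own mean over the 6 libraries (vertical axis), by library, with a black line at the mean of the 10 genes. All 10 genes are above their mean in KO replicate 2 and in WT replicate 1 and below it in KO replicate 3, while KO replicate 4 spreads from Pf4 at 0.69 to Gp1ba at -0.27.

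Ratios between members within a library remove this common movement only where both genes move by the same amount. The SD within groups ran from 0.21 for Itgb3 to 0.63 for Gp5 in log2 CPM, so part of the movement can remain in a ratio. Of the 45 pairs, 13 (28.9%) had ratios that did not overlap between the groups, which is near the 26.2% of all pairs of tested genes with counts in every library, so the number of such pairs is no result about the members. Gp1ba was in 7 of the 13, Tubb1 in 5 and Itgb3 in 0. The pairs named here were chosen after their values were seen, and with 3 against 3 libraries an exact permutation test cannot give a two-sided p below 0.1, so no test is given. The ratio of Pf4 to Gp1ba, per kilobase of exon, was 13.04, 10.3 and 11.8 in WT replicates 1, 3 and 4 and 17.8, 19.2 and 31.3 in KO replicates 2, 3 and 4. The ratio of Gp1ba to Gp1bb, whose products are joined in the receptor, was 1.11, 1.36 and 1.01 in WT and 0.656, 0.821 and 0.549 in KO. The ratio of Gp1ba to Gp9 was 0.460, 0.423 and 0.367 in WT and 0.316, 0.308 and 0.236 in KO. KO replicate 4 was the most distant library in each of these 3 ratios. Other pairs overlapped: the ratio of Ppbp to Pf4 was 1.76 ± 0.106 in WT and 1.63 ± 0.160 in KO, and that of Gp5 to Gp9 was 0.554 ± 0.0759 in WT and 0.517 ± 0.103 in KO (SD, n = 3 each).

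The exons of Pf4 add up to 0.72 kilobases and those of Gp1ba to 2.72. In a fit with offsets for exon length and GC, the log2 fold change of Pf4 exceeded that of Gp1ba by 0.80, against 0.89 without offsets. Over all fits this difference lay between 0.62, without KO replicate 4, and 1.16. For Gp9 and Gp1ba the difference was 0.55, and 0.46 with these offsets. For Gp1bb and Gp1ba it was 0.81 and 0.79, with the doubt about the counting of Gp1bb given above.

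**Figure D4:**
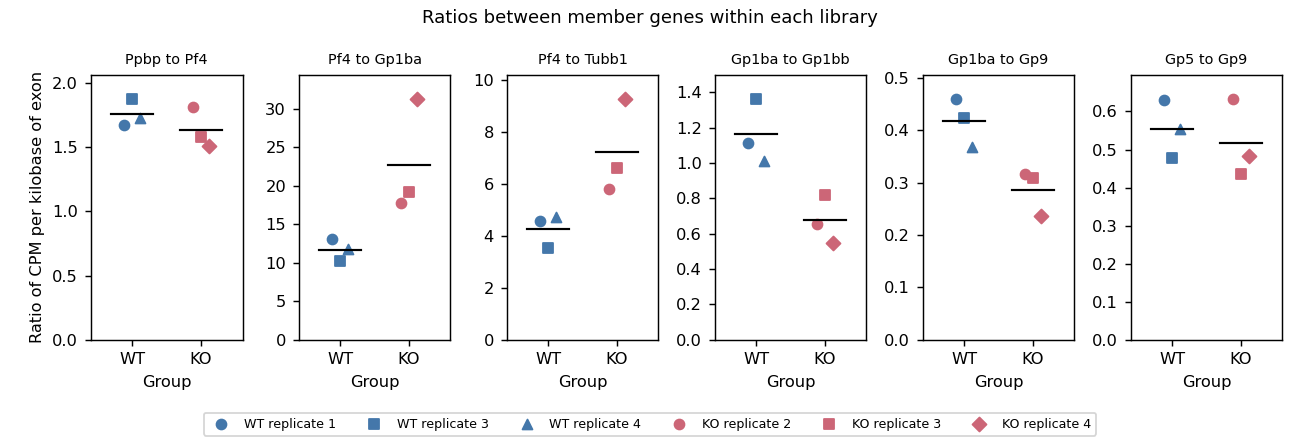
Ratios of 6 pairs of members within each library (vertical axis, ratio of CPM per kilobase of exon, starting at 0), WT in blue and KO in red with a line at each mean. Pf4 to Gp1ba and Pf4 to Tubb1 are higher, and Gp1ba to Gp1bb and Gp1ba to Gp9 lower, in each KO library than in each WT library, while Ppbp to Pf4 and Gp5 to Gp9 overlap. Of all pairs of tested genes, 26.2% had no overlap.

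The regulators of the lineage were taken next, as a list of 15 genes, most of them transcription factors. In edgeR 1 fell, 0 rose and 14 did not pass, with a median log2 fold change of -0.21. DESeq2, which called 12.6% of its tested genes, called 4 lower and 1 higher. Mef2c, a transcription factor of megakaryocytes and also of B cells and myeloid progenitors, fell in KO, from a mean of 58.4 ± 6.82 CPM to one of 40.02 ± 3.81 CPM (SD, n = 3 each, edgeR adjusted p = 0.0435). Mef2c did not pass once WT replicate 1 (adjusted p = 0.123), WT replicate 4 (0.135) or KO replicate 4 (0.156) was left out. It also missed the threshold when Xist entered the fit (0.0696), and in the fit with length and GC offsets (0.162) its log2 fold change was -0.28 against -0.54. Gata2, a factor of stem cells, mast cells and early megakaryocytes, was at 36.5, 32.6 and 36.4 CPM in WT replicates 1, 3 and 4 and at 27.7, 20.8 and 18.0 CPM in KO replicates 2, 3 and 4 (edgeR adjusted p = 0.0518). These groups did not overlap, and 5 of 10 basophil and mast cell markers, Gata2 among them, also had each KO library below each WT library. Over all genes tested this share was 14.7%. In edgeR 0 of the 8 tested markers passed, with 5 lower at an unadjusted p under 0.05 and 2 lower in DESeq2. Their part in the Gata2 value was not tested. The log2 fold change of Zfpm1, the GATA1 partner FOG1, was -0.46 (adjusted p = 0.0927) and that of Mafg, a small MAF partner of NFE2, 0.34 (adjusted p = 0.0767).

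Gata1, the central transcription factor of the lineage, had overlapping groups. It is also expressed by red cell precursors, and it was at 83.7, 62.2 and 73.4 CPM in WT replicates 1, 3 and 4 and at 69.9, 52.0 and 60.9 CPM in KO replicates 2, 3 and 4, with a log2 fold change of -0.26 ± 0.13 (SE, edgeR adjusted p = 0.267). Of 15 erythroid markers 4 fell and 0 rose, a count that was 0 lower when WT replicate 1, WT replicate 4 or KO replicate 4 was left out. Their sum lay between 11280 and 20880 CPM in WT and between 10090 and 14750 CPM in KO. The part of red cell precursors in the Gata1 value was not tested.

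Of 17 other platelet surface receptors 0 passed in edgeR, with a median log2 fold change of 0.29, 13 values above 0 and 4 below. At an unadjusted p under 0.05, reached by 23.9% of all genes tested, there were 5 higher and 1 lower. DESeq2, which called 12.6% of its tested genes, called 2 higher and 1 lower. The tetraspanin gene Cd9 averaged 170 ± 18.5 CPM in the WT group and 231 ± 29.01 CPM in the KO group (SD, n = 3 each, edgeR adjusted p = 0.0797), and each KO library was above each WT library. Itga2, the alpha 2 chain of a collagen receptor, went the other way, with a log2 fold change of -0.69 ± 0.19 (SE, edgeR adjusted p = 0.0826). Fcer1g, the signalling chain that pairs with GP VI but is abundant in myeloid cells as well, had 0.36 (adjusted p = 0.113) and Ptgir, the prostacyclin receptor, 0.32 (adjusted p = 0.137). Gp6, the collagen receptor itself, followed the members, at 10.99, 6.36 and 6.87 CPM in WT replicates 1, 3 and 4 and at 12.1, 5.45 and 9.21 CPM in KO replicates 2, 3 and 4. For Gp6 the log2 fold change was 0.15 ± 0.32 (SE, edgeR adjusted p = 0.816).

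Of 18 granule and secreted proteins 0 passed in edgeR, with a median log2 fold change of 0.05. At an unadjusted p under 0.05, reached by 23.9% of all genes tested, there were 2 higher and 0 lower. DESeq2, which called 12.6% of its tested genes, called 2 higher. These were Serpine2, a protease inhibitor, with 39.0 ± 11.2 CPM for WT and 64.7 ± 12.2 CPM for KO, and Pros1, the anticoagulant protein S, with 16.7 ± 2.42 and 25.3 ± 6.78 CPM (SD, n = 3 each, edgeR adjusted p = 0.121 and 0.110). For Clu, the granule chaperone clusterin, the log2 value was 0.53 (adjusted p = 0.24), and for Pdgfa, a growth factor chain, 0.46 (adjusted p = 0.262). Vwf, the ligand of GP Ib, made by megakaryocytes and endothelium, was at 68.5, 44.7 and 48.7 CPM in WT replicates 1, 3 and 4 and at 54.1, 35.5 and 37.8 CPM in KO replicates 2, 3 and 4. The log2 fold change of Vwf was -0.35 ± 0.21 (SE, edgeR adjusted p = 0.356). Of 12 endothelial markers 1 fell, Eng, a call that was lost without any 1 library other than KO replicate 2. Their sum lay between 110 and 145 CPM in WT and between 98.8 and 119 CPM in KO. Their part in the Vwf value was not tested.

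Of 24 genes of the platelet cytoskeleton and signalling 1 rose, 0 fell and 23 did not pass, with a median log2 fold change of 0.23. DESeq2 called 5 and limma 4 as higher, where they called 12.6% and 6.23% of their tested genes in either direction. Rgs18, a brake on G protein signalling in platelets that is also present in other marrow cells, rose in KO, from a mean of 79.0 ± 3.44 CPM to one of 114 ± 15.03 CPM (SD, n = 3 each, edgeR adjusted p = 0.0437). It was above 0 in every fit, but it did not pass when WT replicate 1 (adjusted p = 0.113), 3 (0.0889) or 4 (0.145), or KO replicate 2 (0.0596) or 4 (0.159), was left out. The same held for library totals only (0.0509) and for Xist in the fit (0.0739). For Tuba8, an alpha tubulin, the log2 value was 0.42 (adjusted p = 0.0541), for Rap1b, the GTPase that activates the fibrinogen receptor, 0.38 (adjusted p = 0.0846) and for Gng11, a G protein gamma chain, 0.93 ± 0.24 (SE, adjusted p = 0.0753). Each KO library was above each WT library for these 3 genes, as it was for 14.4% of all genes tested. Neutrophil markers moved with the groups as well. Of the 12, 4 rose in edgeR, where 2.46% of all genes tested were called. All 12 had each KO library above each WT library, where 14.4% of all genes did. The number rising was 12 in DESeq2 and 9 in limma, and in edgeR it was 2 with WT replicate 3 left out and 0 with any of WT replicate 1, WT replicate 4 and KO replicate 4 left out. Their sum lay between 43710 and 54720 CPM in WT and between 65070 and 79560 CPM in KO. Their part in the values of genes that myeloid cells share, such as Rgs18 and Rap1b, was not tested.

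**Figure D5:**
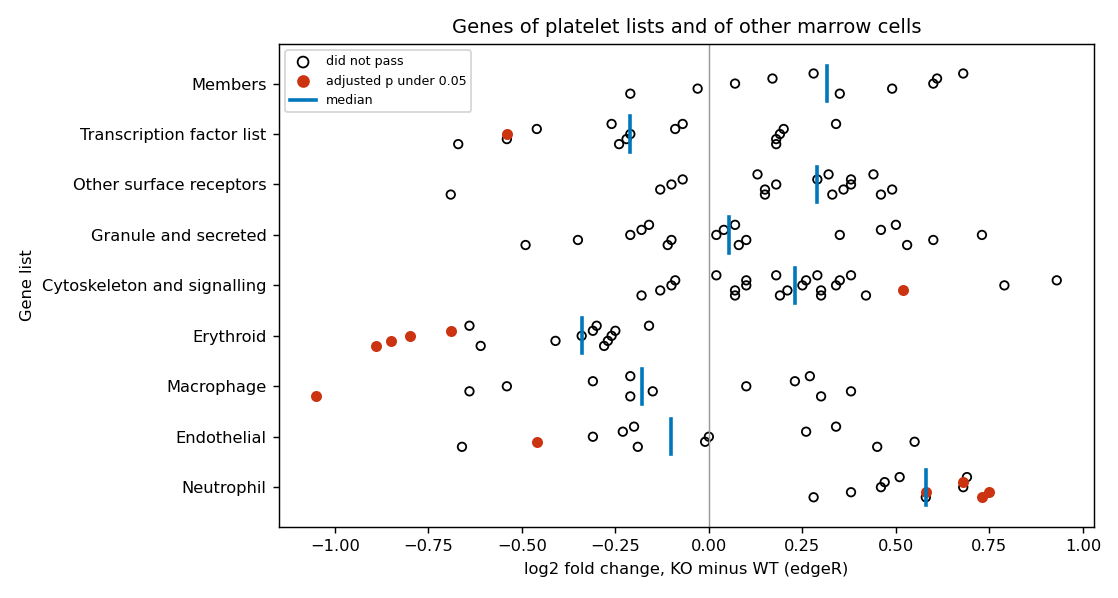
Log2 fold change, KO minus WT (horizontal axis), of each tested gene in the platelet lists and in lists of other marrow cells, with filled red points for edgeR adjusted p under 0.05 and a blue line at each list median. The 10 members have no filled point, the transcription factor list and the cytoskeleton list have 1 each, and the erythroid and neutrophil lists have 4 each on opposite sides of 0.

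Macrophages can also express Pf4. Of 12 macrophage markers 1 fell in edgeR, Siglec1, and 0 rose, while DESeq2 and limma each called 3 lower. For 4 of the 12 each KO library was below each WT library, against 14.7% of all genes tested. The 12 markers summed to between 355 and 399 CPM in WT and between 345 and 431 CPM in KO, with no marker at 0 counts. Of these sums Vcam1 made up 122 to 139 CPM in WT and 130 to 163 CPM in KO. The macrophage sum was 396, 355 and 399 CPM in WT replicates 1, 3 and 4 and 399, 345 and 431 CPM in KO replicates 2, 3 and 4. These sums mix markers with a log2 fold change above 0 (5 of 12) and below 0 (7 of 12). Among the 5 were C1qa, C1qb and C1qc, which like Pf4 were highest in KO replicate 4. The mean profile of the 12 markers correlated at 0.59 with that of the members over the 6 libraries. The part of macrophages in the Pf4 level was not tested. Immediate early genes, which respond to a stimulus or to handling of the tissue within minutes, fell for 14 of 18, and for 8 when WT replicate 1, WT replicate 4 or KO replicate 4 was left out. Their sum lay between 6159 and 7752 CPM in WT and between 2754 and 3626 CPM in KO. The members showed no such separation of the groups.

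Genes outside the lists were ranked by the Pearson correlation of their log2 CPM with the mean of the 10 centred members over the 6 libraries, among 11078 candidates (mean log2 CPM from 1 upward, predicted genes and pseudogenes left out). Of these 110 had a value above 0.9. The 8 highest were Chtop, Lrrc32, Gnaz, H2afx, Src, Fastkd5, Grtp1 and Npepl1, with values between 0.978 and 0.995. Gnaz, the alpha subunit of Gz, a G protein abundant in platelets, was at 9.28, 5.45 and 6.25 CPM in WT replicates 1, 3 and 4 and at 12.7, 5.93 and 8.59 CPM in KO replicates 2, 3 and 4. Lrrc32, a surface receptor for latent TGF-beta on platelets and regulatory T cells, was at 5.64, 3.83 and 4.53 CPM in WT and at 6.92, 3.83 and 5.42 CPM in KO. Chtop, an mRNA export factor, had the highest correlation with a narrow range, from 149 to 169 CPM. With 6 libraries and this many candidates, high correlations are a description only. Among the listed genes, Lat, F2rl2, Alox12 and Gp6 had correlations of 0.98 or 0.99 with the same mean. Others went the opposite way, such as Flna (-0.98), Vcl (-0.96) and Tln1 (-0.91) of the cytoskeleton list, so not every listed gene moved with the members. The mean profile of a whole list correlated with that of the members at 0.34 for the regulators of the lineage and 0.78 for the cytoskeleton list. For the granule and secreted proteins this value was 0.96, and for the other surface receptors it rounded to 1.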

How the data were processed

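Raw read counts per Ensembl gene were deposited for 6 libraries in 2 groups of 3. The tools named for the authors' counts, per the submitters' processing notes, were Trimmomatic 0.36 (trimming), STAR 2.5.2b (alignment) and, for counting, featureCounts from Subread 1.5.2, on GRCm38. Not given in the sources used here were the gene annotation's release, whether strand was used, and how reads fitting more than 1 gene were handled. Symbols, exon lengths and positions came from GENCODE M21 (GRCm38), which held 49056 of 49315 identifiers. Counts were filtered with filterByExpr by group, scaled by TMM and tested with edgeR 4.0.16 (R 4.3.3, robust quasi-likelihood, two-sided, Benjamini-Hochberg over 16956 genes, threshold 0.05), which was also tested on simulated data. Alternatives were DESeq2 1.42.0, limma 3.58.1, other scalings and filters, a replicate block, each library left out, blood protein genes left out, a term marking the libraries in which Xist exceeded 1 CPM, and offsets for exon length and GC content. Xist exceeded 1 CPM in WT replicates 3 and 4 and in KO replicate 2, so it was not balanced between the groups. The members, lists and alternatives were chosen with earlier results of these data known. Named genes were the members, Gata1, Vwf and Gp6 by role (1 further gene is not reported here), the 4 genes with the smallest p in each further list, and the 8 genes most correlated with the members. Lists of other cells are given mainly as counts and sums. Of 12 stem and progenitor markers 0 passed in edgeR, with 1 higher and 2 lower at an unadjusted p under 0.05 and 2 lower in DESeq2. Sites for miR-181 were sought in the longest 3' UTR of each gene.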

Additional observations from a re-analysis of the deposited data

How the results depend on the processing

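Of the 10 members, 0 were called in any of the 16 alternative fits. Their median log2 fold change lay between 0.12 and 0.33 in the fits with all libraries, and between 0.02 and 0.60 when 1 library was left out. Signs near 0 turned: Itgb3 was 0.00 with library totals only and -0.06 with the replicate block, and Tubb1 was 0.08 in limma. With 1 library left out, Gp1ba ranged from -0.56 to 0.03, Gp5 from -0.17 to 0.60, Itga2b from -0.07 to 0.38, Itgb3 from -0.11 to 0.17 and Tubb1 from -0.37 to 0.23. In the 4 platelet lists together, edgeR called 1 gene higher and 1 lower; the numbers higher and lower were 0 and 2 with library totals only, 5 and 4 with no filter on low counts, 10 and 5 in DESeq2, 6 and 2 in limma, 4 and 3 with the replicate block and 0 and 0 with the Xist covariate. There were 2 lower with DESeq2 size factors and 2 with haemoglobin, mitochondrial and immunoglobulin genes left out. With 1 library left out they ranged from 0 to 5 higher and from 0 to 4 lower. Over all genes, 159 higher and 258 lower became 87 and 403 with library totals only, 653 and 839 with no filter, 857 and 784 in DESeq2, 495 and 562 in limma, 76 and 133 with the Xist covariate and 170 and 168 with offsets for length and GC. With 1 library left out the range was 6 to 316 higher and 23 to 604 lower. The cause of these shifts was not tested. The labels used do not say whether libraries with the same replicate number share anything else. Deviations of the WT and KO libraries numbered 3 correlated at 0.33 over 12156 genes and those numbered 4 at -0.35. With the replicate block the adjusted p was 0.0625 for Mef2c and 0.0533 for Rgs18, and the members' median was 0.12. With 3 libraries a group, the 95% intervals of Pf4 and Ppbp reach 3.08 and 2.82 times the WT level, so rises up to those sizes are not excluded. Among other marrow cells, the count of neutrophil markers rising ranged from 0 to 5 and that of erythroid markers falling from 0 to 5 when 1 library was left out, and they were 3 and 2 with the replicate block.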
